A study of Mus musculus with 2 samples.

Results

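The FOXO and naive T cell quiescence genes described here are 9 genes linked to the resting, uncommitted state of a T cell: Foxo1, Foxo3, Klf2, Tcf7, Lef1, Satb1, Bach2, Id3 and Igfbp4. They were chosen by name and matched to the array through RefSeq accessions, which gave 12 probes among the 27220 that matched any of 20651 genes. Their transcripts were read in 2 mouse samples labelled as T helper 9 (TH9) cells, the helper type that secretes interleukin 9. One sample came from SIRT1flox/flox-CD4-Cre mice, in which a Cre recombinase driven by Cd4 acts on floxed alleles of Sirt1, a gene for an NAD-dependent deacetylase, and is called the knockout here. The other came from wild-type mice, and the labels give neither the age or number of the animals nor whether the wild-type mice carried Cre or floxed alleles. Cd4-driven Cre acts in T cells, so other cells of such mice keep Sirt1. For both samples, naive CD4 T cells were sorted out of spleen and lymph nodes and stimulated with antibodies to CD3 and CD28 (2 µg/ml of each) and 100 U/ml human IL-2, with TGFβ1 (2 ng/ml) plus IL-4 (10 ng/ml) to steer them to TH9, for 5 days by the sample descriptions. Each genotype had 1 array with 1 dye, so no test between genotypes was possible and each difference below compares these 2 arrays, without replicates to check it.

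FOXO proteins are forkhead transcription factors that sit in the nucleus of resting cells and leave it when the kinase AKT phosphorylates them after antigen receptor or growth factor signals. In naive T cells FOXO1 maintains KLF2, a zinc finger factor that in turn keeps the exit receptor S1PR1 expressed, and FOXO1 also maintains the survival receptor IL7R. TCF1 (encoded by Tcf7) and LEF1 are HMG-box partners of β-catenin, SATB1 organises chromatin loops, BACH2 occupies AP-1 sites and restrains effector genes, ID3 blocks E proteins, and IGFBP4 is a secreted carrier of insulin-like growth factors. FOXO proteins are known substrates of SIRT1, and the comparison asks how these transcripts stood in the culture labelled knockout and the one labelled wild-type.

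The start regions of 4 of these genes are shown because they are the gene with a FOXO motif at its start (Tcf7), those with the lowest and the highest difference (Bach2 and Igfbp4), and a textbook FOXO1 target (Klf2). The sequences are from RefSeq on GRCm38.p6 and run 5′ to 3′ from 250 bases before the annotated start to 50 after it. Capitals mark a match to the FOXO core motif.
Tcf7, chr11:52282546-52282845, minus strand: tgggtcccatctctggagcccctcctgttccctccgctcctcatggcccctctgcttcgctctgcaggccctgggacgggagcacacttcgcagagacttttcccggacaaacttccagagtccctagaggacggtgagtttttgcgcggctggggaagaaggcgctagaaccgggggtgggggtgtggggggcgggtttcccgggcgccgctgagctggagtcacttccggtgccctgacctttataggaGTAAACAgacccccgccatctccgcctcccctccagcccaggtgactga
Bach2, chr4:32417185-32417484, plus strand: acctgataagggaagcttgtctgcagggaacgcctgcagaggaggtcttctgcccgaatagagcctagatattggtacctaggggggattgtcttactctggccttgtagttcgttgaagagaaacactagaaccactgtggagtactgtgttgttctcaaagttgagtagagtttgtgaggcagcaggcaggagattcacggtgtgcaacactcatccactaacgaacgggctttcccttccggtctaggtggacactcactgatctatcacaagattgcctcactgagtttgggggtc
Klf2, chr8:72318812-72319111, plus strand: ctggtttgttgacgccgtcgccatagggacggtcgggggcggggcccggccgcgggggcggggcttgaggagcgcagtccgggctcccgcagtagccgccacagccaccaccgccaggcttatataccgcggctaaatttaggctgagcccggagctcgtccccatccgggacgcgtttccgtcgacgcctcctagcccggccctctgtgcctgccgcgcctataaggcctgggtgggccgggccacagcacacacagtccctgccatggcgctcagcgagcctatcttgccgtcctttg
Igfbp4, chr11:99040994-99041293, plus strand: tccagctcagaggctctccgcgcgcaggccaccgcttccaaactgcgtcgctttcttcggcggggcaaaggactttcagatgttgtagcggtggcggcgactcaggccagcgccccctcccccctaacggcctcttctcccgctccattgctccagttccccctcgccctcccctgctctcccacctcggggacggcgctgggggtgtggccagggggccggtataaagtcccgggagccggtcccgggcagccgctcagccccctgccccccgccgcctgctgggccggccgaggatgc
The RefSeq table held 17 start windows for the 9 genes, several of them alternative starts of Tcf7, Lef1 or Satb1. The FOXO core (TGTTTAC, either strand) was in 1 of the 17 windows, the Tcf7 window above, where it lies at bases 252 to 258 on the opposite strand. Over all 32851 windows of the table, 3.65% held that motif. The TCF/LEF core CTTTGAT, present in 3.73% of all windows, was in 0 of the 17, as was TGANTCA, the shared core of AP-1 and BACH sites, present in 7.81%. A match is only a run of letters, and windows without one can still bind these factors elsewhere.

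Of the 9 genes, 8 were well above background on both arrays, and Foxo3 was so on neither. Levels below are log2 processed signals minus the 75th percentile of all gene probes of the array, so 0 is the 75th percentile itself. The error given with a difference combines the scanner software's error of both spots and covers the spot alone, not animals or cultures. Among the 8 genes, 4 were higher and 4 lower in the knockout, against 50.4% and 49.6% of the 12958 genes measured on both arrays. Igfbp4 was the 1 gene at least 2-fold higher, where 3.95% of all measured genes were, and 0 of the 8 were at least 2-fold lower, where 3.63% were. In either direction 7.59% of all measured genes passed 2-fold (512 higher and 471 lower, but 205 higher and 1182 lower with normexp, a background correction described below, and 801 higher and 292 lower after centring each array on its median). The median difference of the 8 genes was 0.07 (knockout minus wild type, log2), against 0.00 over all measured genes. The 8 differences spread from -0.75 for Bach2 to 1.21 for Igfbp4, and 1 of the 8, Id3, was smaller than its scanner error, as were 39.4% of all genes.

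**Figure D1:**
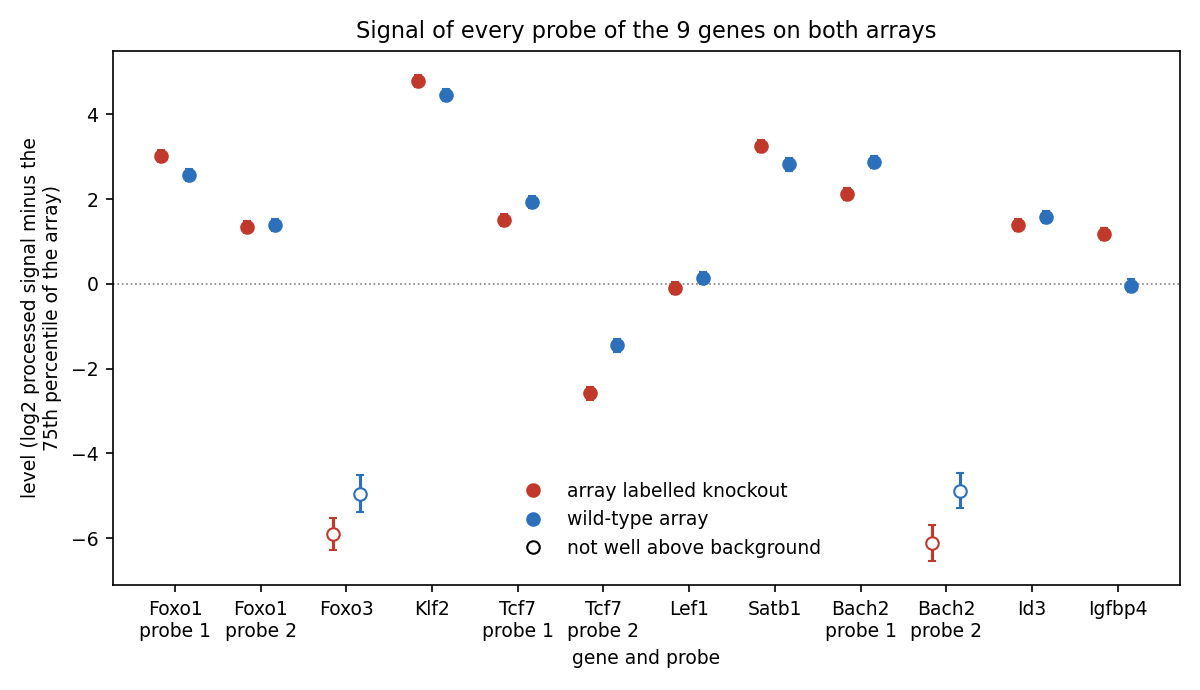
Level of each of the 12 probes on the array labelled knockout (red) and on the wild-type array (blue), as log2 processed signal minus the array's 75th percentile, with bars for the scanner error of the spot and open points for spots not well above background. The knockout point lies above the wild-type point for Igfbp4 by 1.21 and below it for Bach2 probe 1 by 0.75, and the Foxo3 probe and the second Bach2 probe were not well above background on either.

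Of the FOXO genes, Foxo1 was measured on both arrays. The brighter Foxo1 probe had a processed signal of 4230 in the knockout and 3210 in the wild type, or levels of 3.02 and 2.56, a difference of 0.46 ± 0.20. The second Foxo1 probe read 1320 in the knockout and 1430 in the wild type, a difference of -0.05 ± 0.20. The 2 probes thus differed from each other by 0.51 on the log2 scale, and the mean over both put Foxo1 at 0.21. Of 2902 genes with at least 2 probes measured on both arrays, 34.2% had probes at least that far apart, and in 40.2% the probes disagreed in sign.

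Foxo3, which encodes a related FOXO factor, read 8.66 in the knockout and 17.6 in the wild type, and neither spot was well above background. The lowest signals well above background were 9.76 in the knockout and 24.6 in the wild type, so the Foxo3 spots lay under both and no fold is given. This holds for the 1 probe that matched a Foxo3 accession. The family members Foxo4 and Foxo6 are named here after their values were seen. Foxo4 was well above background on neither array, with signals of 4.15 in the knockout and 4.95 in the wild type. Foxo6 read 12.3 in the knockout, well above background there, and 10.7 in the wild type, where it was not, and no fold is given. Over all genes, 1769 were well above background in the knockout only and 143 in the wild type only.

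Klf2, the factor downstream of FOXO1, read 14300 in the knockout and 12000 in the wild type, a difference of 0.32 ± 0.20 at levels of 4.78 and 4.46. That is 1.25-fold higher in the knockout, and 22.6% of measured genes were as high or higher. With normexp, which models the background, the difference was 0.68. Endothelial cells also express Klf2. The sort for naive CD4 T cells is meant to remove them, and also the B, myeloid, stromal, CD8 and NK cells whose markers are given below. Yet all 12 B cell markers were well above background on both arrays, such as Ms4a1 at 35900 in the knockout and 50400 in the wild type. Il9, the cytokine of TH9 cells, was well above background on neither array (7.36 in the knockout, 5.48 in the wild type). Ms4a1 and Il9 are named here after their values were seen. The endothelial cadherin Cdh5 was -0.04 and Pecam1, found on all endothelium, was -0.44. The probes of Kdr, a VEGF receptor, ranged from -0.74 to 0.85, while the lymphatic marker Lyve1 was 1.43. Emcn was well above background in the knockout only, as were 1769 of all genes, against 143 in the wild type only. The part of endothelial cells in the Klf2 value was not tested.

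The transcripts of TCF1 and LEF1 read lower on the knockout array, that of LEF1 by little more than its error. The brighter Tcf7 probe read 1470 in the knockout and 2070 in the wild type, a difference of -0.43 ± 0.20, or 1.35-fold lower. The second, dimmer Tcf7 probe read 86.5 in the knockout and 199 in the wild type, a difference of -1.14 ± 0.21, which is past 2-fold. Both probes thus pointed the same way while 0.71 apart, a gap that 22.6% of genes with several probes reached. The mean over both probes was -0.78. Probes with a signal like that of the dimmer Tcf7 probe had a median difference of -0.15 on these arrays, where those like the brighter one had 0.02, so the gap between the 2 probes was narrower relative to probes of like signal, at -0.99 and -0.45. Lef1 read 488 in the knockout and 597 in the wild type, a difference of -0.23 ± 0.20, close to the size of its error. After centring each array on its median the Lef1 difference was -0.04.

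Bach2 had the lowest difference of the 8 genes. Its brighter probe read 2260 in the knockout and 3990 in the wild type, levels of 2.12 and 2.87 and a difference of -0.75 ± 0.20, or 1.69-fold lower, and 7.53% of measured genes were as low or lower. The second Bach2 probe read 7.47 in the knockout and 18.5 in the wild type, well above background on neither array. BACH2 is also abundant in B cells. Of the 12 B cell markers 11 were lower in the knockout, as were 49.6% of all measured genes, with a median of -0.22. Their summed level was 238 in the knockout and 282 in the wild type (multiples of the 75th percentile), none being below background on either array. The 15 T cell markers summed to 233 in the knockout and 211 in the wild type, so the B cell sum was of like size. The sort is meant to remove B cells, and their part in the Bach2 value was not tested. In bulk samples such as these, fewer cells of a type and less RNA per cell cannot be told apart.

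Satb1, the chromatin organiser, read 4940 in the knockout and 3830 in the wild type, a difference of 0.43 ± 0.20 at levels of 3.25 and 2.82. It stood 1.35-fold higher in the knockout, and 16.6% of measured genes were as high or higher. Id3, the inhibitor of E proteins, read 1360 in the knockout and 1620 in the wild type, a difference of -0.19 ± 0.20. The Id3 value had no stable sign: it was 0.00 after median centring and 0.05 with normexp.

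Igfbp4 had the highest difference. It read 1170 in the knockout and 528 in the wild type, levels of 1.17 and -0.04 and a difference of 1.21 ± 0.20, or 2.32-fold higher, and 2.23% of measured genes were as high or higher. The same probe gave 1.08 from the median pixel intensities (1223 in the knockout, 580.5 in the wild type) and 1.14 from the background-subtracted signals, before any scaling between arrays. Over the 7 other ways of processing, the Igfbp4 difference lay between 1.14 and 1.40, above 2-fold in each. Igfbp4 had 1 probe, so all of these rework the same spots, and the mean over probes could not differ. Mesenchymal cells also secrete IGFBP4. Of the 12 stroma and endothelium markers, 9 of the 11 measured on both arrays were higher in the knockout, 5 of them by at least 2-fold. Over all measured genes these shares were 50.4% and 3.95%. Of the 9, 7 are genes of fibroblasts and other mesenchymal cells (Col1a1, Col1a2, Col3a1, Pdgfra, Pdgfrb, Dcn and Lum), between 0.44 and 1.28. The median of the whole list was 0.93, and their summed level was 25.6 in the knockout and 14.2 in the wild type. None was below background in the knockout, and 1 (Emcn) was so in the wild type. The part of those cells in the Igfbp4 value was not tested.

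**Figure D2:**
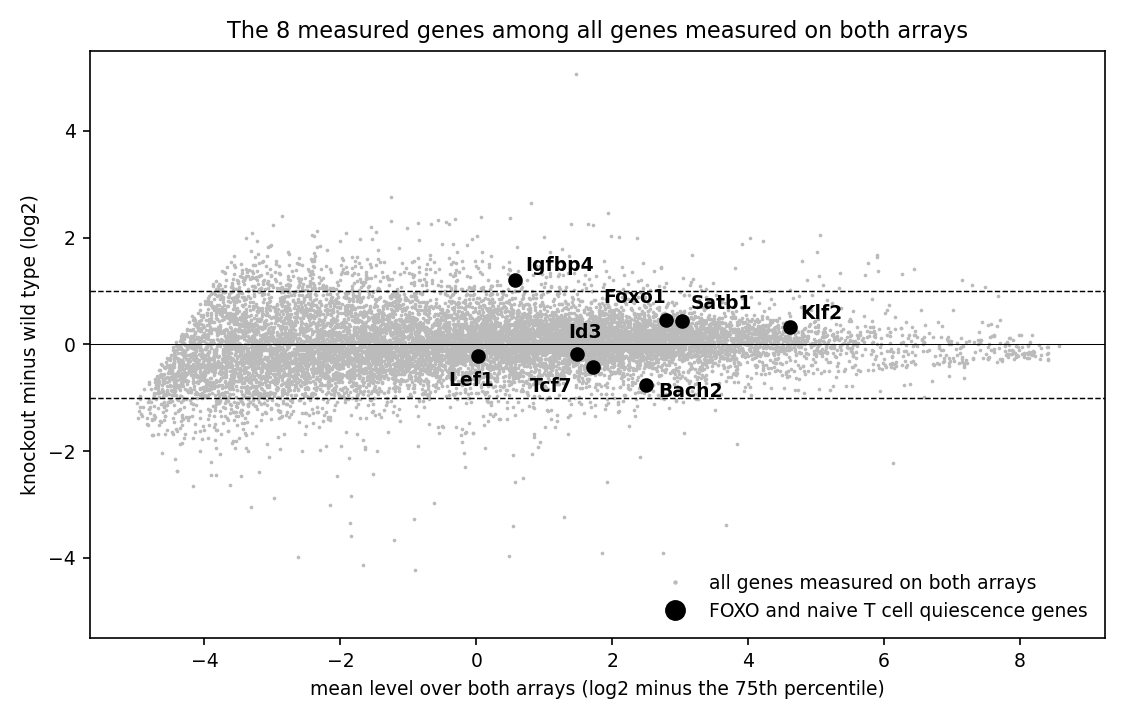
Difference (knockout minus wild type, log2) against the mean level over both arrays for the 12958 genes measured on both (grey) and the 8 quiescence genes among them (black, named), with dashed lines at 2-fold. Igfbp4 lies above the upper line at 1.21, and the other 7 lie between the lines, from -0.75 to 0.46.

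The way the signals were processed moved the 8 differences without changing which of them passed 2-fold. By the brightest probe or the mean over probes, Klf2, Foxo1, Satb1 and Igfbp4 were higher in the knockout under all 7 alternatives. Tcf7, Lef1 and Bach2 were lower under all 7, and Id3 alone turned. The second Foxo1 probe had no stable sign, at -0.05 as reported, -0.08 with quantile scaling and 0.14 after median centring. Lef1 after median centring, at -0.04, was well inside its error. All 7 alternatives rework the same pair of arrays, and the mean over probes can move only genes with several measured probes. Centring on the median raised all differences by about the same amount, since it moved the median over all measured genes to 0.19, and relative to that shift the values were as before. The deposited value table, a separate processing by the authors, gave 1.21 for Igfbp4, -0.78 for Bach2, -0.42 for Tcf7 and 0.43 for Foxo1.

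**Figure D3:**
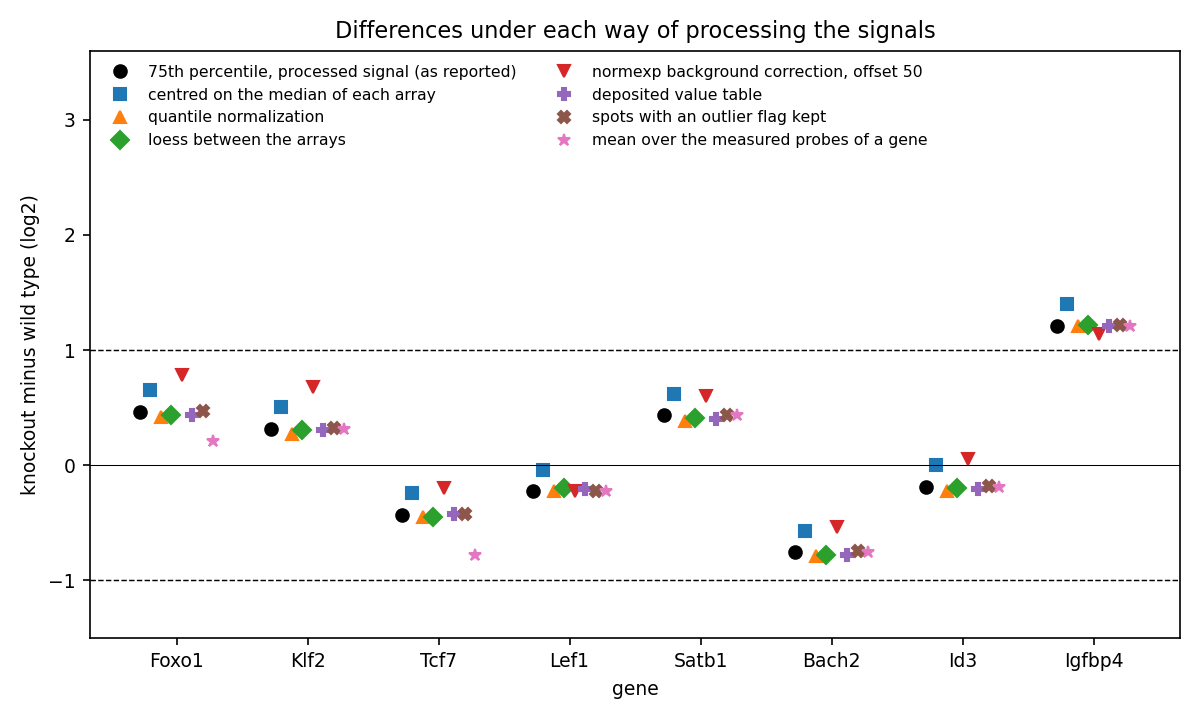
Difference (knockout minus wild type, log2) of the 8 measured genes under the reported processing (black) and under 7 alternatives, with dashed lines at 2-fold. Igfbp4 stays between 1.14 and 1.40 and Bach2 between -0.79 and -0.53, while Tcf7 spreads from -0.78 to -0.20.

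Upstream regulators of FOXO lay within 2-fold, as did all but 7.59% of all measured genes. Of 18 matched genes, 16 were measured on both arrays, 9 higher and 7 lower in the knockout, and 0 passed 2-fold in either direction, with a median of 0.05 that was -0.06 by the mean over probes. The Pik3r1 probe, for the regulatory subunit of PI3 kinase, read 70.5 in the knockout and 142 in the wild type, a difference of -0.95 ± 0.21. The kinases Akt1 and Sgk1, which phosphorylate FOXO proteins and are named here after their values were seen, differed by -0.13 ± 0.20 and 0.06 ± 0.20.

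Genes known as FOXO targets lay on both sides of 0. All 26 matched and 24 were measured on both arrays. Of these 15 were higher and 9 lower, against 50.4% and 49.6% of all measured genes, with a median of 0.12. At 2-fold 0 passed upward and 2 downward, where 3.95% and 3.63% of all measured genes did. The list includes Klf2 and Tcf7 from above. Sesn3, a brake on mTOR complex 1, read 1270 in the knockout and 3090 in the wild type, 2.33-fold lower (-1.22 ± 0.20). S1pr1, the exit receptor that KLF2 maintains, read 745 in the knockout and 1590 in the wild type, 2.04-fold lower (-1.03 ± 0.20), where Klf2 itself was 0.32 higher. With normexp both were within 2-fold, Sesn3 at -0.88 and S1pr1 at -0.80, and S1pr1 was so after median centring too, at -0.84. The textbook targets Ccr7 and Il7r, named here after their values were seen, were within 2-fold. Ccr7, the lymph node homing receptor, read 19100 in the knockout and 19400 in the wild type, a difference of 0.04 ± 0.20. Il7r read 7250 in the knockout and 5670 in the wild type, a difference of 0.42 ± 0.20.

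Other genes of the naive state were spread about 0. All 21 naive T cell genes were measured on both arrays, 12 higher and 9 lower in the knockout, with a median of 0.05. Of the 21, 0 were at least 2-fold higher and 1, S1pr1, at least 2-fold lower. Over all measured genes, 3.95% were at least 2-fold higher and 3.63% at least 2-fold lower. Of the 29 other quiescence genes, 27 were measured on both arrays, 11 higher and 16 lower, with 0 past 2-fold upward and 1 downward and a median of -0.07 that turned to 0.12 after median centring. That 1 gene was Elf4, a factor that restrains CD8 T cell proliferation, at signals of 86.2 in the knockout and 191 in the wild type (-1.08 ± 0.21, 2.12-fold lower), and it was within 2-fold after loess (-0.96), in the deposited table (-0.99) and after median centring (-0.90).

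Partners and relatives of the TCF, BACH, SATB and ID factors also lay mostly within 2-fold, as did all but 7.59% of all measured genes. All 17 TCF and LEF partners were measured, 9 higher and 8 lower, with a median of 0.04 that was -0.04 by the mean over probes. Gsk3b, the kinase that marks β-catenin for destruction, was the 1 gene past 2-fold, 2.06-fold lower at 937 in the knockout and 2020 in the wild type (-1.04 ± 0.20), but its highest probe gave -0.25 the mean over its 3 probes was -0.59, and the reported probe gave -0.86 after median centring and -0.76 with normexp. Of the 9 measured relatives and partners of BACH and SATB factors, 7 were higher and 2 lower, 0 passed 2-fold, and the median was 0.07. Hmox1, a haem oxygenase gene that BACH1 represses, differed by 0.69 ± 0.21 and Maff, a small MAF factor, by 0.51 ± 0.21, and the second Hmox1 probe gave -0.13. Of 7 measured members of the ID family and E protein list, 3 were higher and 4 lower, 0 passed 2-fold, and the median of -0.14 turned to 0.05 after median centring and to 0.19 with normexp. Id2, the ID gene that rises with effector differentiation, read 5900 in the knockout and 4070 in the wild type, a difference of 0.60 ± 0.20, where Id3 had -0.19. Tal1, a factor of blood stem cells and red cell precursors, read 53.0 in the knockout and 105 in the wild type, a difference of -0.92 ± 0.23.

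Genes of the IGF axis, in which IGFBP4 acts, were higher in the knockout in all 9 members measured on both arrays, with a median of 0.20 that was -0.01 with normexp. Of these differences, 5 were smaller than their scanner error, as were 39.4% over all measured genes. The 2 remaining genes of the 11 were above background in the knockout only, as were 1769 of all genes, against 143 in the wild type only. Their knockout signals (Igf2 12.6, Igfbp2 18.2) lay under 24.6, the lowest signal well above background in the wild type. Of the 9, 3 were at least 2-fold higher and 0 lower by as much. Over all measured genes, 50.4% were higher by any amount, 3.95% at least 2-fold higher and 3.63% at least 2-fold lower. Igf1, the growth factor itself, read 3300 in the knockout and 1170 in the wild type, 2.95-fold higher (1.56 ± 0.20), and its 3 probes ranged from 0.59 to 1.56. Igfbp3 read 167 in the knockout and 59.5 in the wild type, 2.94-fold higher (1.55 ± 0.24), which shrank to 0.13 with normexp. Igfbp7 read 2210 in the knockout and 1020 in the wild type, 2.27-fold higher (1.18 ± 0.20). Macrophages and stromal cells express these genes too. Of 13 measured markers of macrophages and dendritic cells 11 were higher and 5 passed 2-fold, with a median of 0.69 (0.34 with normexp) and a summed level of 206 in the knockout and 173 in the wild type (76.5 in the knockout and 35.5 in the wild type without Siglech, which held most of the sum and was left out after seeing the data), none below background on either array, and their part and that of the stroma markers given with Igfbp4 was not tested.

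Effector genes that oppose the naive programme were mostly higher in the knockout. All 16 were measured, 14 higher and 2 lower, against 50.4% and 49.6% of all measured genes. Of the 16, 2 were at least 2-fold higher and 0 at least 2-fold lower, where 3.95% and 3.63% of all measured genes were. The median of 0.40 lay between 0.39 and 0.59 under all 8 alternatives, which rework the same 2 arrays. This list, like the others, was chosen with earlier results of these data known. Tbx21, the TH1 master factor that also marks NK cells, read 1330 in the knockout and 601 in the wild type, 2.32-fold higher (1.21 ± 0.20). Klrg1, a receptor of terminal effector and NK cells, read 716 in the knockout and 360 in the wild type, 2.08-fold higher (1.06 ± 0.21), and 0.83 with normexp. Markers of CD8 and NK cells were higher in 9 of 10, with a median of 0.44 and a summed level of 77.9 in the knockout and 39.7 in the wild type, and none was below background on either array. Klra1, an NK cell receptor gene, was 1.56 higher and held 47.5 of that sum in the knockout and 16.2 in the wild type. Without Klra1, a choice made after seeing the data, the other 9 summed to 30.4 in the knockout and 23.6 in the wild type, with a median of 0.37. Their part in the effector genes was not tested.

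**Figure D4:**
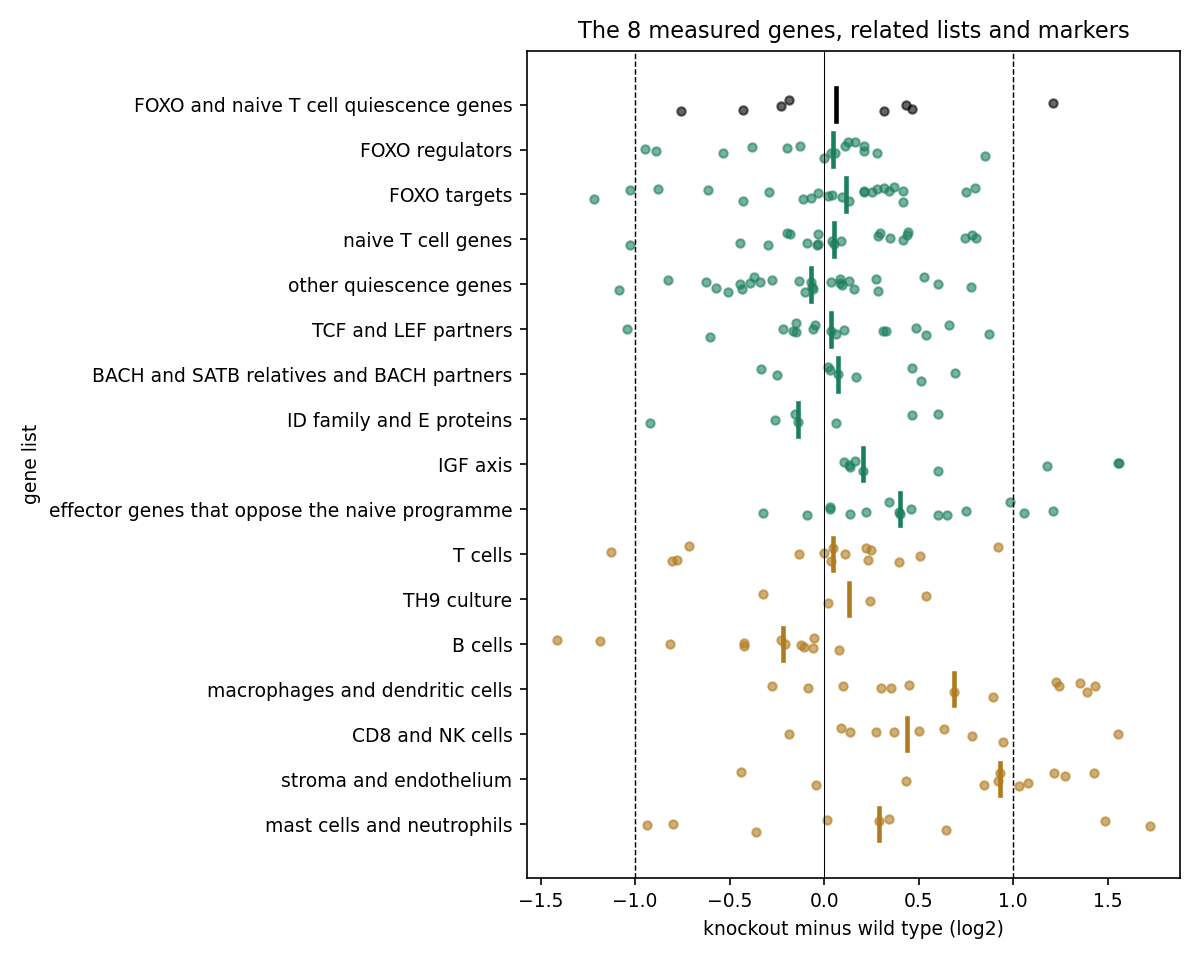
Difference (knockout minus wild type, log2) of each gene measured on both arrays, for the 8 quiescence genes (black), 9 related lists (green) and 7 cell type marker lists (ochre), with thick bars at the medians and dashed lines at 2-fold. The quiescence genes have a median of 0.07 and the naive T cell genes one of 0.05, while the effector genes have 0.40 and the stroma and endothelium markers 0.93.

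The barcode in both file headers starts with 1, which does not tell whether the arrays shared a slide. Of the gene spots, 65.3% in the knockout and 57.1% in the wild type were well above background. None of the 12 probes carried an outlier flag or was saturated. Probes spotted 10 times varied between their spots with a median SD of 0.03 (knockout) and 0.04 (wild type) on the log2 scale, over 248 such probes above background, so differences between spots were far smaller than most values above, but that says nothing of differences between cultures. The Sirt1 probe read 2920 in the knockout and 3240 in the wild type (-0.08 ± 0.20, and 0.10 after median centring). The sources used here do not place this probe relative to the deleted exons, so it does not check the genotype label, and every direction here rests on that label. T cell markers were well above background in 15 of 15, 9 higher and 6 lower, with a median of 0.04 that was -0.11 by the mean over probes and -0.001 with quantile scaling. Cd3e, a chain of the T cell receptor complex, was 2.18-fold lower (-0.86 with normexp). Of the 6 markers of the TH9 culture, 4 were measured on both arrays, with a median of 0.13 that was -0.05 by the mean over probes and with Gata3 at 0.54 and Irf4 at -0.33, and Il9 was well above background on neither. Mast cell and neutrophil markers were higher in 6 of 9, with a median of 0.29 (0.03 with normexp). They summed to 248 in the knockout and 232 in the wild type, of which S100a9, picked after seeing the data, held 171 and 169.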

How the data were processed

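RNA of 2 samples, 1 per genotype, was hybridised to 1-colour (Cy3) Agilent arrays, scanned and quantified in Agilent Feature Extraction 11.0.1.1 (version per the submitters' processing notes). Groups follow the genotype label. Per the file headers, the scanner output holds for each spot an intensity: the processed signal, background-subtracted within the array, its error, the median pixel intensity and flags. The deposited value table holds log2 values by the authors, with equal column medians of 5.36, and its normalization, centring and scale are not given in the sources used here.

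Gene spots with an outlier flag on either array were left out, spots of 1 probe were averaged, and the 75th percentile over gene probes (signals of 520 in the knockout and 544 in the wild type) was subtracted on the log2 scale. Accessions were matched without version to RefSeq genes on GRCm38.p6, while the file headers name mm9, so no gene coordinates are printed and promoter windows carry the build of their table. Each gene stands for its brightest probe (mean log2 level of both arrays) that passed background on 1 array or more, and 12191 probes without a match were not analysed here. A gene counted as higher or lower at 2-fold if well above background on both arrays. With 1 array per genotype no p-value was computed, and the precision is limited by the number of arrays. The median difference at like signal is over 1001 neighbouring probes.

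The 9 genes, the 9 related lists and the 7 marker lists were chosen with earlier results of these data known. Named genes are all 9, Sirt1 and, per list, up to 4 that passed 2-fold, taken by size, and otherwise the 2 of greatest size. In marker lists some of these stand in the summary of the list only. One gene that this rule names is not reported here. Alternatives were median centring, quantile and loess scaling, normexp (offset 50, on median intensities), the deposited table, the mean over probes, flagged spots kept, all genes whatever their background flag, and thresholds of 1.5-fold and 3-fold. Tools were R 4.3.3 with limma 3.58.1 and Python 3.11.15, and the quantile and loess scaling were tested on simulated data.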

Additional observations from a re-analysis of the deposited data

How the results depend on the processing

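Igfbp4 was the 1 of the 8 measured quiescence genes at least 2-fold higher, and 0 were at least 2-fold lower, under 75th percentile and median scaling, quantile, loess, normexp, the deposited table, the mean over probes, flagged spots kept and all genes whatever their flag. At 3-fold 0 were higher, and at 1.5-fold 1 (Bach2) was lower. The median of 0.07 moved to 0.33 with normexp and to -0.19 with Foxo3 counted in spite of its background flag. Normexp also turned Lum, a stroma marker, to -0.31 from 1.08. It changed the count of all genes past 2-fold from 512 higher and 471 lower to 205 higher and 1182 lower, and median centring to 801 higher and 292 lower. The cause was not tested. No paired analysis was possible because each genotype has 1 array. With 1 array each, no difference could be told from variation between cultures, whatever its size beside the scanner error of 0.20. Signals under 9.76 in the knockout and 24.6 in the wild type gave no fold.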
